A study of Mus musculus with 16 samples.

Results

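Cortical RNA from vehicle-fed 5xFAD mice was compared between females (FC) and males (MC), which used the 8 vehicle libraries of the 16 in the series, 4 in each group. The sex chromosomes and the mitochondrial genome were left out of the reading, so that 15067 autosomal genes remained of the 15625 genes tested and the 47593 listed. All mice were heterozygous for the 5xFAD transgenes on a hybrid C57BL/6-SJL background. These transgenes are human amyloid precursor protein with the Swedish, Florida and London mutations and a further mutant human transgene, both driven by the neuron-specific Thy1 promoter. FC and MC mice ate a standard diet with the microencapsulation carrier but no drug from 2 to 5 months of age, when the cortex was taken. No non-transgenic mice were part of the comparison, so every value describes the amyloid model itself. The rapamycin-fed females (FR) and males (MR) of the same line and age, 4 libraries each, were used only as a further set of mice in which to read the difference between the sexes.

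In 5xFAD cortex, amyloid made by neurons aggregates into plaques from early adulthood, and females of the line are known to carry more of it than males. Microglia, the resident macrophages of the brain, survey the tissue through receptors such as P2ry12 and Cx3cr1. Around plaques they turn on a program led by Trem2, Apoe, Cst7 and lysosomal genes. Astrocytes near plaques become reactive and raise Gfap and Serpina3n, and complement, interferon and stress genes are often followed as further readouts of the same state.

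Total depth ranged from 16393501 to 20593089 counted read pairs in FC and from 16797945 to 20007177 in MC. The sex-linked genes matched the labels of all 8 vehicle libraries: Xist lay between 490.8 and 1021 CPM (counts scaled to a common library size, with TMM factors) in FC and at no more than 1.01 CPM in MC, and the sum of 4 Y-linked genes between 103 and 132 CPM in MC and at no more than 0.341 CPM in FC. Among the rapamycin libraries the one labelled MR4 had 9935 Xist read pairs and 0 of the Y-linked genes, so results from FR and MR are given with and without it. The FC against MC fit of all 16 libraries kept this library under its label and was run only that way. FC4 and MC4 belong to batch 2 of the labels and the other 6 libraries to batch 1, and batch was a term of the test. The mitochondrial share of counts was 4.16% ± 0.898 in FC and 3.46% ± 0.687 in MC (SD, n = 4 each). The difference of 0.704 lay between the SDs of the groups (two-sided exact permutation test, p = 0.314, where the smallest p possible is 0.0286). The trend of expression with exon length, a sign of RNA quality or library preparation, had an FC minus MC difference of 0.00754 (same exact permutation test, p = 0.971). How many animals gave RNA to a library is not in the labels, so p-values measure the spread between these libraries, which may be technical in part.

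No autosomal gene (0% of those tested) passed both thresholds between FC and MC, an edgeR adjusted p under 0.05 together with a change of 1.5-fold or more. The smallest adjusted p was 0.143. Before adjustment 930 genes (6.17%) had a p under 0.05, of which 499 were higher in FC (3.31%) and 431 lower (2.86%). In 155 genes (1.03%) all 4 FC libraries lay above all 4 MC libraries, and in 123 (0.816%) all lay below. The 6 genes that did pass the adjusted threshold were sex-linked. DESeq2 with the same terms called 14 autosomal genes (0.0517% of 27091), 12 of them higher in FC. Without FC2 edgeR called 15, of which 14 were higher in FC and which held Lypd1, Otof, Bhlhe22, Lmo7 and Ankfn1, and without MC2 it called Gm3608. Gene differences below are therefore levels with their errors, and the words higher and lower give a direction that did not pass the adjusted test in edgeR. Log2 fold changes are FC minus MC throughout, and their median over all autosomal genes was -0.01. Of the autosomal genes tested 48.5% had a positive value. Over the alternative fits 1.88 to 5.04% of genes were higher in FC at an unadjusted p under 0.05, and 0.923 to 5.62% lower.

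Homeostatic microglia genes, those of the surveying state, had a higher summed level in every FC library than in any MC library. All 14 tested autosomal members of the homeostatic microglia list had a positive log2 fold change, with a median of 0.42. Of these, 10 were higher in FC at an unadjusted p under 0.05 and 0 were lower, beside 3.31% and 2.86% of all genes, and in 5 the groups did not overlap, beside 1.03%. The summed level of the list was 720, 859, 744 and 654 CPM in FC and 638, 597, 536 and 513 CPM in MC. All FC sums lay above all MC sums, with MC1 and FC4 close to each other. With each library left out in turn the median was 0.35 to 0.54. In these fits 9 to 11 members had an unadjusted p under 0.05, where 2.33 to 5.04% of all genes were higher. That count was 6 in the fit of all 16 libraries, where 1.88% of all genes were higher. Members of a list come from the same libraries and move together, so their number does not add replicates. In bulk tissue, more cells of a type and more RNA per cell cannot be told apart.

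Cx3cr1, the fractalkine receptor of microglia (chromosome 9, 119901616 to 120068283, GRCm38), was at 95.1, 109.9, 105.8 and 81.1 CPM in FC and at 77.7, 66.3, 68.2 and 63.7 CPM in MC. The groups did not overlap, and FC4 was the lowest female. Its log2 fold change was 0.50 (SE 0.09, unadjusted p = 0.000149, edgeR adjusted p = 0.233). With DESeq2 the adjusted p was 0.00124 at the same size, which is under the fold threshold. Fcrls, a scavenger-like receptor used to mark resident microglia (chromosome 3, 87250758 to 87263738), was at 59.9, 82.2, 64.4 and 51.0 CPM in FC and at 33.4, 52.2, 40.5 and 26.1 CPM in MC. Only MC2 reached into the female range, just above FC4. The log2 fold change was 0.77 (SE 0.15, unadjusted p = 0.000279, edgeR adjusted p = 0.318), and DESeq2 gave an adjusted p of 0.00085.

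Cd33, an inhibitory sialic acid receptor, was at 12.04, 13.97, 13.1 and 14.7 CPM in FC and at 9.79, 8.86, 7.93 and 9.61 CPM in MC. The groups were apart, and its log2 fold change was 0.57 (SE 0.12, edgeR adjusted p = 0.393). P2ry13, a receptor for extracellular nucleotides, was at 19.3, 19.9, 25.0 and 13.3 CPM in FC and at 16.3, 12.4, 11.4 and 10.2 CPM in MC, where MC1 lay above FC4. The related receptor P2ry12, through which microglia sense ATP and ADP, had a log2 fold change of 0.40 (SE 0.14, unadjusted p = 0.0191). Csf1r, the receptor on which microglial survival depends, and Olfml3 had values of 0.34 and 0.47, both with no overlap. Slc2a5, the fructose transporter, was at 0.51, also with no overlap. Siglech, a further microglial marker, stood at 0.45 with overlapping groups. The 4 members that missed an unadjusted p of 0.05 were Tmem119 at 0.03, Sall1, the transcription factor of microglial identity, at 0.14, Selplg at 0.20 and Aif1, which encodes Iba1, at 0.28. Tmem119 was at 31.7, 31.3, 26.9 and 26.1 CPM in FC and 31.2, 29.1, 28.5 and 24.8 CPM in MC, so the ranges of this marker covered each other.

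**Figure D1:**
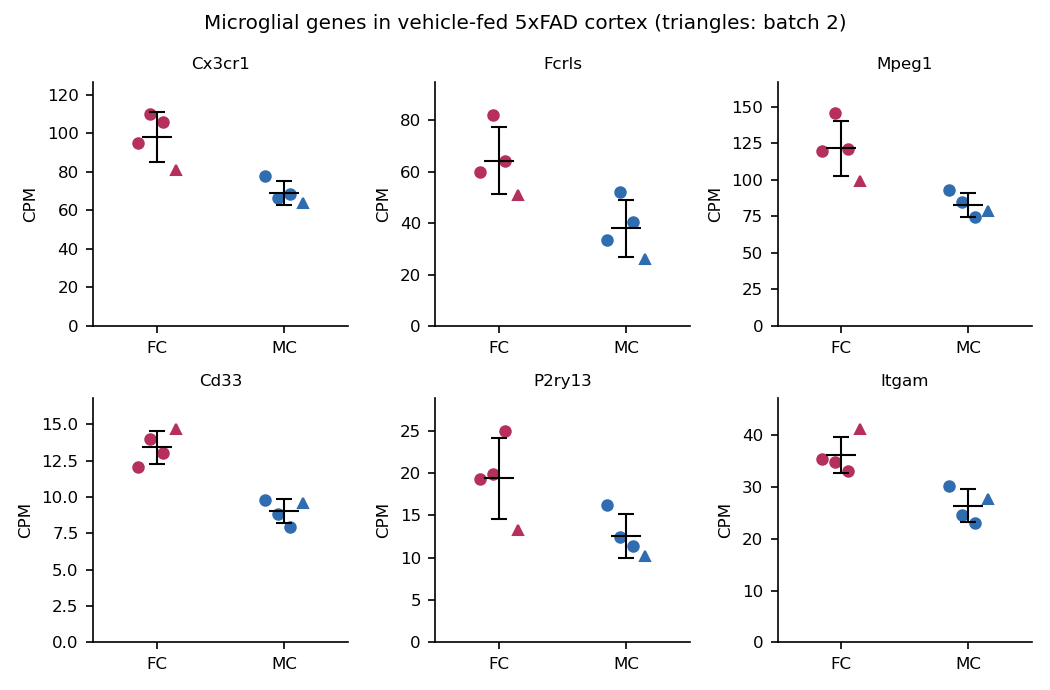
CPM of 6 microglial genes (y axis, from 0) in the 4 FC and 4 MC libraries (x axis). Points are libraries (circles batch 1, triangles batch 2), and bars give the mean ± SD. Cx3cr1 lay between 81.1 and 109.9 CPM in FC and between 63.7 and 77.7 CPM in MC, and the groups also stayed apart for Mpeg1, Cd33 and Itgam, while they overlapped for Fcrls and P2ry13.

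The upstream sequences of the 4 members with the smallest p are shown because these genes share microglial expression, for which PU.1 is a known regulator. Each line gives the 250 bases before the RefSeq transcription start on GRCm38.p6, 5′ to 3′ on the strand of the gene, here the minus strand for all 4. Capitals mark GAGGAA, the letters at the core of PU.1 sites, searched on both strands with no other motif searched. The windows are chr9:120068297-120068546 for Cx3cr1, chr3:87263525-87263774 for Fcrls, chr7:43533172-43533421 for Cd33 and chr3:59210883-59211132 for P2ry13. The Cd33 window lies inside the gene as counted (chromosome 7, 43524216 to 43544428). That of Fcrls overlaps its counted gene, which runs to 87263738. In both, the marked letters are inside the counted gene.
Cx3cr1: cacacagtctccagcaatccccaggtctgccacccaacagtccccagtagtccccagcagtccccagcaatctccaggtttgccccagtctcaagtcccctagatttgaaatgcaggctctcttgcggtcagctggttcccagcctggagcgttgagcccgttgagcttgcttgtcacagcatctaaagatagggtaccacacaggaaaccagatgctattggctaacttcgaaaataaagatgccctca
Fcrls: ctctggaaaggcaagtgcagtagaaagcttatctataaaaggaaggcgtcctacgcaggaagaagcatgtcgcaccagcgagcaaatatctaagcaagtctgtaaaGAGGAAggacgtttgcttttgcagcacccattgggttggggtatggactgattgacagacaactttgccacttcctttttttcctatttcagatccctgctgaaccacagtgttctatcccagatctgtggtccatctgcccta
Cd33: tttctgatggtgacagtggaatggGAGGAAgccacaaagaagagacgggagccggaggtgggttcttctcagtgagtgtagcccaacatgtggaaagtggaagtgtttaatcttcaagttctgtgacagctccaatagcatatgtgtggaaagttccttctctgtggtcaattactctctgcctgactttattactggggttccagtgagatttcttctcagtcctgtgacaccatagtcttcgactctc
P2ry13: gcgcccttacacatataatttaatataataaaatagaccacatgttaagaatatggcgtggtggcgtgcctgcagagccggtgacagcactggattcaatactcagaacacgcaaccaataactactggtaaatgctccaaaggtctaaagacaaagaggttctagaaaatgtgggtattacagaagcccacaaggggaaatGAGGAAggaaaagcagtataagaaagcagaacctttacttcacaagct
The letters began 144 bases before the start in Fcrls, 226 in Cd33 and 48 in P2ry13, and were not in the window of Cx3cr1. Of the 14 homeostatic members 10 were found in the RefSeq table and 4 held the letters, the remaining one being Aif1. Among all 32851 RefSeq promoters of this length 23.3% held them. This share counts promoters, while the 4 of 10 counts genes, of which Sall1 had 3 windows, none with the letters.

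Phagocytic genes gave a like picture. Of 18 autosomal members of the list of phagocytic receptors and the NADPH oxidase 17 could be tested, 16 had a positive log2 fold change, and 9 were higher in FC at an unadjusted p under 0.05 (3.31% of all genes), with 0 lower. The median was 0.41, and 2 members had groups apart, beside 1.03% of all genes. The count of 9 was 5 without the batch term or with the mitochondrial share as a term, and 4 in the fit of all 16 libraries. In these fits 1.89, 2.18 and 1.88% of all genes were higher. Itgam, the integrin CD11b that binds complement-coated targets, was at 35.5, 34.9, 33.2 and 41.3 CPM in FC and at 30.2, 24.7, 23.2 and 27.8 CPM in MC. No library overlapped, and its log2 fold change was 0.45 (SE 0.10, unadjusted p = 0.00107, edgeR adjusted p = 0.523). Ncf1, a cytosolic subunit of the oxidase, was likewise apart, at 8.33 to 12.9 CPM in FC and 6.12 to 7.95 CPM in MC, with a log2 fold change of 0.55 (SE 0.15). Fcgr2b, the inhibitory Fc gamma receptor, was at 11.9, 19.2, 12.7 and 8.57 CPM in FC and 8.60, 9.80, 5.403 and 5.90 CPM in MC. FC2 was highest and FC4 lay inside the male range, and the log2 fold change was 0.80 (SE 0.21, unadjusted p = 0.00325, edgeR adjusted p = 0.674). The activating receptors Fcgr3 and Fcgr1 stood at 0.41 and 0.48, and their signalling chain Fcer1g at 0.43, all with overlap. Mertk, which takes up apoptotic cells, was at 0.29, and Itgb2, the partner chain of Itgam, at 0.41. Cd36, the scavenger receptor with the highest value of 1.67 (SE 0.60), was at 2.05 CPM or less in every library. Tlr2, a pattern recognition receptor, was at 0.14 (SE 0.22).

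Genes of plaque-associated microglia were less uniform. Of 25 members 21 were positive, beside 48.5% of all genes, with a median of 0.21. At an unadjusted p under 0.05, 7 were higher in FC, beside 3.31%, but in 0 of them were the groups apart, beside 1.03%. Clec7a, the dectin-1 receptor, was at 13.9, 20.5, 13.97 and 9.53 CPM in FC and at 10.5, 9.70, 9.43 and 6.97 CPM in MC. Its log2 fold change was 0.65 (SE 0.15, unadjusted p = 0.00132, edgeR adjusted p = 0.595), and FC4 lay within the male range. Lpl, lipoprotein lipase, had a value of 0.54 (SE 0.13). Trem2, the lipid-sensing receptor of the program, was at 59.7, 100.6, 45.9 and 48.4 CPM in FC and at 59.8, 50.3, 42.7 and 31.3 CPM in MC. FC2 was far above every other library and the other 3 FC libraries lay within the male range, with a log2 fold change of 0.48 (SE 0.21, unadjusted p = 0.041). Its adaptor Tyrobp had a like pattern, with 60.8 CPM in FC2 and 21.5 to 38.5 CPM in the other FC libraries, beside 17.6 to 37.1 CPM in MC. Cd68, Lag3, Ccl6 and B2m stood between 0.36 and 0.42. Cst7, a cystatin induced at plaques, was at 0.34 (SE 0.25) and Itgax, the integrin CD11c, at 0.08. Apoe, the lipid carrier, was at 0.05 (SE 0.15), and its sign turned without FC2, FC4 or MC4 and in batch 1 alone, each at -0.06. Spp1, osteopontin, lay lower in FC at -0.45 (unadjusted p = 0.0888). The summed level of the 25 genes was 4500 to 6830 CPM in FC and 4250 to 5460 CPM in MC, which overlap. Without FC2 the median was 0.05 and 2 members stayed at an unadjusted p under 0.05, where 5.04% of all genes were higher. Leaving out MC2 left 3 (2.45% of all genes higher), and leaving out MC3 left 2 (3.54%). The fit without the batch term gave 2 (1.89% of all genes higher) and that of all 16 libraries 1 (1.88%). Batch 1 alone, which is also what remains without FC4 or MC4, gave 3 higher and 1 lower, beside 3.66% and 3.79% of all genes.

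Further genes of leukocytes and microglia were among the 20 autosomal genes with the smallest p. Mpeg1, which encodes the pore-forming perforin-2 of macrophages, was at 119.7, 145.7, 121 and 99.2 CPM in FC and at 93.2, 84.5, 74.3 and 78.5 CPM in MC. The groups were apart, and its log2 fold change was 0.55 (SE 0.10, unadjusted p = 0.000269, edgeR adjusted p = 0.318). Nckap1l, the blood cell subunit of the actin-regulating WAVE complex, was at 22.6 to 25.9 CPM in FC and 16.04 to 18.5 CPM in MC. Inpp5d, the inositol phosphatase SHIP1, was at 22.5 to 27.9 CPM in FC and 17.01 to 18.8 CPM in MC. Lcp1, an actin-bundling protein of leukocytes, was at 15.2 to 21.7 CPM in FC and 11.5 to 13.9 CPM in MC. None of these 3 overlapped between groups, at log2 fold changes of 0.47, 0.45 and 0.50. Hpgds, the hematopoietic prostaglandin D synthase, was at 9.80, 11.99, 9.57 and 15.3 CPM in FC and 8.31, 5.47, 5.17 and 7.36 CPM in MC, a log2 fold change of 0.81 (SE 0.18, edgeR adjusted p = 0.477, DESeq2 adjusted p = 0.0301). Ly9, a receptor of the SLAM family on leukocytes, lay at 2.46 to 6.33 CPM in FC and 1.46 to 2.09 CPM in MC (log2 fold change 1.17, SE 0.24, DESeq2 adjusted p = 0.0307). Cybrd1, a ferric reductase, was between 2.88 and 3.17 CPM in FC and between 0.949 and 1.61 CPM in MC. It had the smallest spread in FC of these low genes, with a log2 fold change of 1.20 (SE 0.24, edgeR adjusted p = 0.339). AI607873 stood at 0.926 to 2.23 CPM in FC and 0.398 to 0.517 CPM in MC, with a log2 fold change of 1.81 (SE 0.37).

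**Figure D2:**
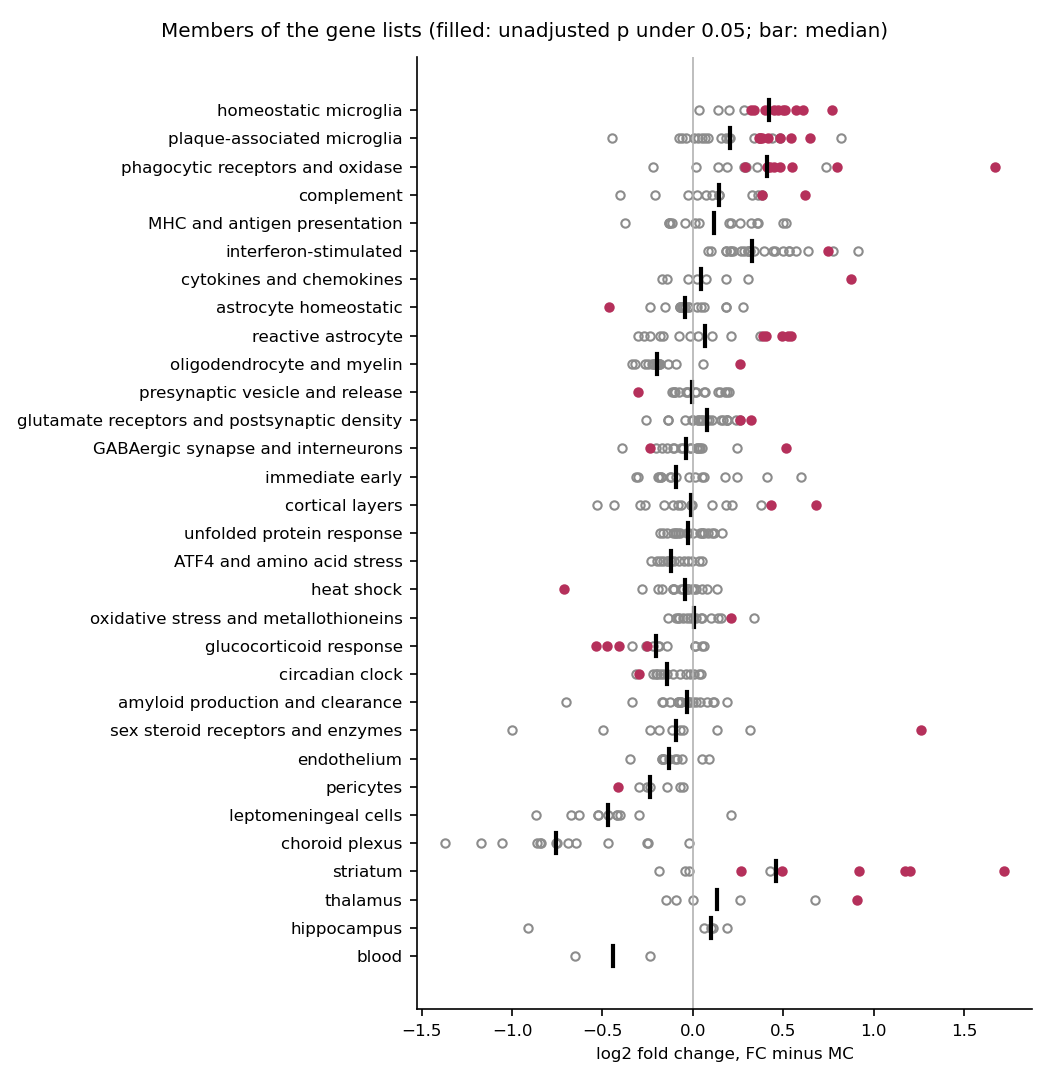
Log2 fold change of FC minus MC (x axis) for each tested autosomal member of the 31 gene lists (y axis). Circles are genes, filled where the unadjusted p was under 0.05, and black bars are list medians. The bar of the homeostatic microglia list sits at 0.42 and that of the choroid plexus list at -0.75, and the bars of the presynaptic list and the unfolded protein response list at -0.01 and -0.03.

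Complement and antigen presentation genes held few such members. Of 13 tested complement genes 2 were higher in FC at an unadjusted p under 0.05, beside 3.31% of all genes. Of the 13, 10 were positive and 3 negative, the lowest at -0.40. The median was 0.14, and without FC2 it was -0.06. The count of 2 became 4 without FC3 or MC1 (2.52 and 3.19% of all genes higher). It became 1 without FC2, FC4, MC2, MC3 or MC4, where 2.45 to 5.04% of all genes were higher. C4b, the component cleaved in the classical pathway and made by reactive glia, was at 74.3, 133.6, 68.8 and 108.6 CPM in FC and at 58.6, 60.8, 58.3 and 73.2 CPM in MC. FC2 and FC4 lay far above all males and FC3 below MC4, at a log2 fold change of 0.62 (SE 0.18, unadjusted p = 0.00519, edgeR adjusted p = 0.692). C1qa, the A chain of the initiating complex, was at 0.38 (SE 0.17), C1qc, its partner chain, at 0.36 (SE 0.18) and the receptor C3ar1 at 0.38 (SE 0.17). None of 16 tested genes of MHC and antigen presentation had an unadjusted p under 0.05, and their median was 0.12. They held 10 positive and 6 negative members, the lowest at -0.38. The immunoproteasome subunits Psmb9 and Psmb8 were at 0.52 and 0.36, the peptide transporter subunit Tap1 at 0.35 and the class I activator Nlrc5 at 0.50 (SE 0.30). H2-Q7, a class Ib gene whose reads can be split with its near-identical neighbours, was at 0.21 (SE 0.39) and turned to -0.16 without FC2.

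Summed levels of interferon-stimulated genes had opposite directions in the batches, but batch 2 of the vehicle libraries holds only FC4 and MC4. Batch and single library cannot be told apart there. All 24 members had a positive log2 fold change, from 0.08 to 0.92 with a median of 0.33, yet 1 of them had an unadjusted p under 0.05. The summed level was 320, 388, 268 and 251 CPM in FC and 216, 229, 197 and 380 CPM in MC. In batch 1 all FC sums were above all MC sums, while in batch 2 the MC4 library was above FC4. In batch 1 alone 18 of the 24 were higher in FC at an unadjusted p under 0.05, beside 3.66% of all genes (3.79% lower and 7.45% in either direction), with a median of 0.74, and without MC4 or FC4 the counts were 17 and 18. The count was 0 without FC2 or MC1 (5.04 and 3.19% of all genes higher) and 2 without FC3 (2.52%). It was 5 with the mitochondrial share as a term (2.18%) and 10 without the filter on low counts (3.03%). Isg15, a ubiquitin-like modifier induced by interferon, was at 5.07, 6.73, 3.86 and 2.52 CPM in FC and at 1.78, 2.89, 2.47 and 3.49 CPM in MC. It had a log2 fold change of 0.75 (SE 0.32, unadjusted p = 0.04). Ifi44 stood at 0.77 (SE 0.37), and MC4 held 3.04 CPM of it beside 0.796 to 1.13 CPM in the other males. Cxcl10, a chemokine that interferon induces, was at 0.92 (SE 0.43) and at no more than 3.05 CPM. Of 15 cytokine and chemokine genes only 8 were high enough to be tested. Of these 1, Il1a at 0.88 (SE 0.35), was higher in FC at an unadjusted p under 0.05, beside 3.31% of all genes. Tgfb1 was at 0.31 (SE 0.17), and Cx3cl1, the neuronal ligand of Cx3cr1, at -0.14 (SE 0.10).

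Reactive astrocyte genes leaned to females in part of the list. Of 16 tested members 5 were higher in FC at an unadjusted p under 0.05 and 0 were lower, beside 3.31% and 2.86% of all genes. However, 9 were positive, beside 48.5%, and the median was 0.07. Without FC2, FC4 or MC4 and with the mitochondrial share as a term the count of 5 fell to 3. In these fits 2.18 to 5.04% of all genes were higher. In the fit of all 16 libraries it was 2, where 1.88% of all genes were higher. Gfap, the intermediate filament of reactive astrocytes, was at 618, 876, 506 and 599 CPM in FC and at 544, 506, 514 and 406 CPM in MC. FC2 was the highest, FC3 lay among the males, and the log2 fold change was 0.41 (SE 0.14, unadjusted p = 0.0169, edgeR adjusted p = 0.746). Serpina3n, a serine protease inhibitor, was at 26.7, 43.0, 25.9 and 22.8 CPM in FC and at 20.4, 22.8, 24.8 and 14 CPM in MC (log2 fold change 0.54, SE 0.16). Ggta1, a galactosyltransferase, was the member with groups apart, at 6.83 to 10.4 CPM in FC and 5.06 to 5.93 CPM in MC. S100a10 and the oncostatin M receptor Osmr were at 0.50 and 0.39. Of 18 homeostatic astrocyte genes, 1 was lower in FC at an unadjusted p under 0.05 and 0 were higher, beside 2.86% and 3.31% of all genes. This was Etnppl, the phospholyase that breaks down phosphoethanolamine, at 20.8, 20.5, 17.8 and 12.5 CPM in FC and at 24.1, 26.5, 28.7 and 18.8 CPM in MC. Within batch 1 all females were below all males, and the log2 fold change was -0.46 (SE 0.10, unadjusted p = 0.000904, edgeR adjusted p = 0.517). The water channel Aqp4 was at 0.28 (SE 0.15), S100b at 0.18 and the gap junction gene Gjb6 at -0.24, and the list median was -0.04.

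Among 18 oligodendrocyte and myelin genes 16 had a negative log2 fold change, with a median of -0.20, and none of those 16 had an unadjusted p under 0.05. Of all genes 48.5% had a positive value. Mbp, myelin basic protein, was at 1761, 2703, 1510 and 1938 CPM in FC and at 2248, 2325, 2829 and 1910 CPM in MC. FC2 and MC3 were the highest of their groups, MC4 lay among the females, and the log2 fold change was -0.23 (SE 0.17, unadjusted p = 0.201). Without FC2 the list had 12 members lower in FC at an unadjusted p under 0.05 and a median of -0.39, where 5.62% of all genes were lower, beside 2.86% with all libraries. Gpr17, which marks committed oligodendrocyte precursors, was the exception at 0.26 (SE 0.12, unadjusted p = 0.0453). Mal, Myrf and Cnp, genes of mature myelinating cells, were at -0.32, -0.33 and -0.26.

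**Figure D3:**
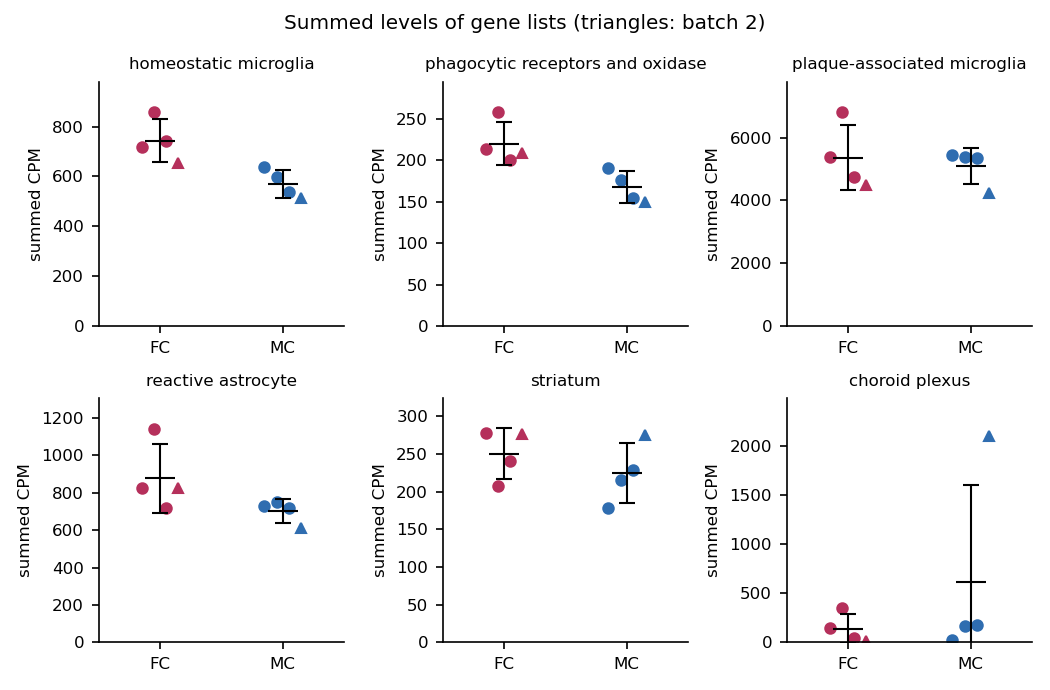
Summed CPM (y axis, from 0) of 6 gene lists in the 4 FC and 4 MC libraries (x axis). Points are libraries (circles batch 1, triangles batch 2), and bars give the mean ± SD. Sums of the homeostatic list were 654 to 859 CPM in FC and 513 to 638 CPM in MC, while in the choroid plexus panel MC4 stands alone at 2100 CPM.

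Synaptic genes showed no common direction. Of 18 presynaptic genes 9 were positive, with a median of -0.01. At an unadjusted p under 0.05, 1 was lower and 0 were higher, beside 2.86% and 3.31% of all genes. Cplx1, a complexin that clamps vesicle fusion, was the member with an unadjusted p under 0.05, at 601, 851, 595 and 664 CPM in FC and at 944, 869, 836 and 715 CPM in MC. FC2 lay within the male range, and the log2 fold change was -0.31 (SE 0.12, edgeR adjusted p = 0.762). Slc17a7, the vesicular glutamate transporter of cortical projection neurons, was at 1923, 1526, 1763 and 1499 CPM in FC and 1483, 1637, 1653 and 1653 CPM in MC, a difference of 0.06 (SE 0.10). Of 23 genes of glutamate receptors and the postsynaptic density 18 were positive, beside 48.5% of all genes, with a median of 0.08. At an unadjusted p under 0.05, 2 were higher in FC, beside 3.31%. These were Gria1, an AMPA receptor subunit, at 0.26 (SE 0.11), and the adhesion molecule Nlgn1 at 0.32 (SE 0.14). Without FC2 the count was 8, where 5.04% of all genes were higher, and it was 0 without FC1, FC3 or MC2. Of 18 GABAergic genes 1 was higher and 1 lower at an unadjusted p under 0.05, beside 3.31% and 2.86% of all genes. These were the receptor subunit Gabra2 at 0.51 (SE 0.20) and the vesicular GABA transporter Slc32a1 at -0.24 (SE 0.10). Gad1, which makes GABA, was at 338, 384, 334 and 284 CPM in FC and 393, 381, 366 and 338 CPM in MC (log2 fold change -0.14, SE 0.08).

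Immediate early genes, which follow recent neuronal activity, varied far more between libraries of a group than between the sexes. The activity gene Arc was at 181.5, 410.3, 79.5 and 383 CPM in FC and at 179.9, 383.5, 220.1 and 313 CPM in MC. FC3 was the lowest and FC2 the highest of all 8, and the log2 fold change was -0.10 (SE 0.40). The transcription factors Fos, Egr1 and Npas4 were at 0.18 (SE 0.38), -0.32 (SE 0.24) and 0.41 (SE 0.20). None of the 17 members had an unadjusted p under 0.05, and the list median of -0.10 became 0.17 without FC3 and 0.20 without MC2. With the mitochondrial share as a term the median was 0.36, with 15 of 17 positive. In that fit 5 were higher in FC at an unadjusted p under 0.05, beside 2.18% of all genes.

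Several neuronal genes were among the 20 autosomal genes with the smallest p. Lypd1, a modulator of nicotinic receptors (chromosome 1, 125867622 to 125913101), was at 75.8, 29.9, 78.7 and 63.8 CPM in FC and at 30.2, 21.7, 25.8 and 19.2 CPM in MC. FC2 lay within the male range and the other females stood above every male. The log2 fold change was 1.37 (SE 0.26, unadjusted p = 0.000285, edgeR adjusted p = 0.318), and without FC2 it was 1.62 at an adjusted p of 0.000103. Otof, which encodes the calcium sensor otoferlin, was at 25.6, 10.5, 22.2 and 69.7 CPM in FC and at 9.97, 7.61, 4.54 and 26.0 CPM in MC. Both batch 2 libraries were high, and within each batch every female was above every male, at a log2 fold change of 1.41 (SE 0.27, edgeR adjusted p = 0.325). Bhlhe22, a transcription factor of cortical projection neurons, was at 84.8, 51.4, 75.4 and 55.4 CPM in FC and at 37.1, 45.5, 39.9 and 36.8 CPM in MC, with groups apart. Its log2 fold change was 0.74 (SE 0.14, edgeR adjusted p = 0.325), and DESeq2 gave an adjusted p of 0.00193. Lmo7, a LIM domain protein of cell junctions, was at 81.1, 58.9, 80.6 and 82.5 CPM in FC and 49.7, 47.9, 50.7 and 60.3 CPM in MC, where FC2 lay just under MC4. Ankfn1 was at 4.29, 1.02, 3.97 and 7.31 CPM in FC and 0.771, 0.796, 0.862 and 2.75 CPM in MC (log2 fold change 1.77, SE 0.40, DESeq2 adjusted p = 0.0127). Camk1g, a calmodulin-dependent kinase, lay lower in FC, at 29.8, 26.8, 22.8 and 36.6 CPM beside 36.0, 41.7, 37.4 and 45.4 CPM in MC (log2 fold change -0.48, SE 0.11, edgeR adjusted p = 0.517). Among the 17 cortical layer genes, the calcium buffer Calb1 was at 177, 115, 189.9 and 100.2 CPM in FC and 88.3, 110.1, 77.4 and 80.9 CPM in MC, with a log2 fold change of 0.68 (SE 0.17, edgeR adjusted p = 0.636, DESeq2 adjusted p = 0.0362). The deep-layer transcription factors Foxp2 and Fezf2 were at 0.43 (SE 0.18) and -0.26 (SE 0.13), and the layer list had a median of -0.01.

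Striatal markers were divided. Of 10 members 6 were higher in FC at an unadjusted p under 0.05, beside 3.31% of all genes, and the median was 0.46. Adora2a, the adenosine receptor of striatopallidal neurons, was at 9.51, 4.36, 8.10 and 6.77 CPM in FC and at 2.31, 2.69, 3.05 and 5.17 CPM in MC (log2 fold change 1.17, SE 0.28, DESeq2 adjusted p = 0.0362). FC2 was the lowest female for this gene and lay within the male range. Drd2, the dopamine receptor, was at 0.92 (SE 0.35) with no overlap. The defining markers Ppp1r1b and Pde10a were at -0.05 and -0.02, and the summed level of the list overlapped, at 207 to 278 CPM in FC and 178 to 275 CPM in MC. Six3 was at 0 in MC1 and at 2.42 CPM in MC4. The median of the list was between 0.33 and 0.65 as each library was left out in turn. At an unadjusted p under 0.05, 1 member remained higher without FC1, 3 without FC3 and 7 without FC2. Beside these stood 2.33, 2.52 and 5.04% of all genes. The count was 3 without the batch term or with the mitochondrial share as a term, and 1 in the fit of all 16 libraries. In these fits 1.89, 2.18 and 1.88% of all genes were higher. Wfs1, a gene with strong differences between cortical areas, was at 234, 74.5, 139 and 152 CPM in FC and at 62.1, 86.6, 290.4 and 97.6 CPM in MC, with no difference beyond the spread (log2 fold change 0.18, SE 0.45). How much of the neuronal differences goes with the piece of cortex taken was not tested.

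**Figure D4:**
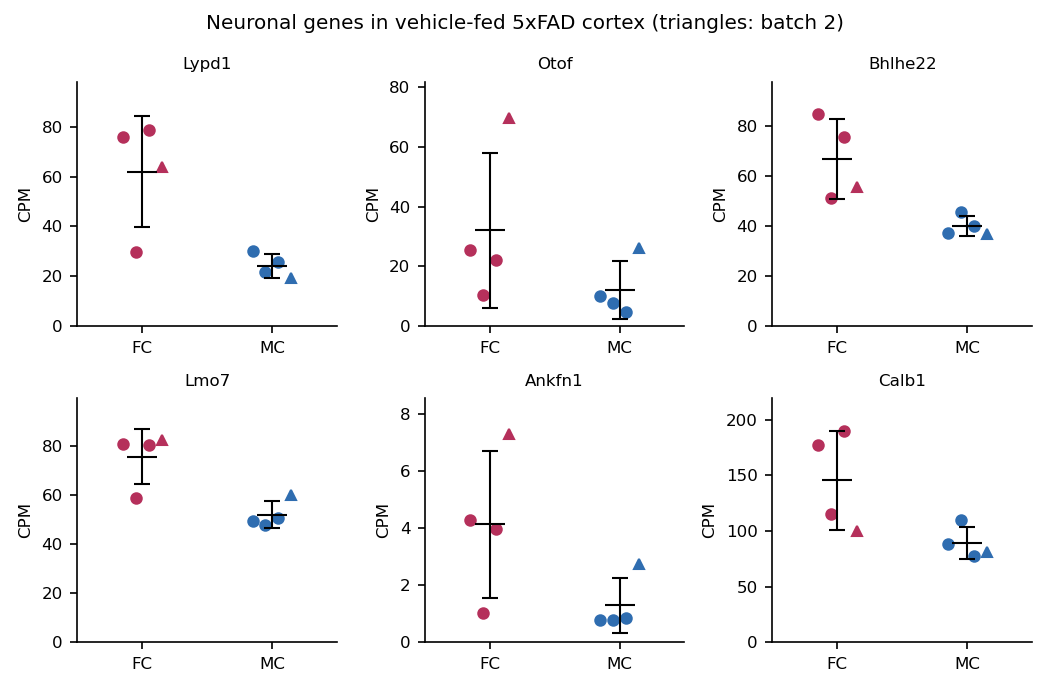
CPM of 6 neuronal genes (y axis, from 0) in the 4 FC and 4 MC libraries (x axis). Points are libraries (circles batch 1, triangles batch 2), and bars give the mean ± SD. FC2, the second circle from the left, is the low female for Lypd1 (29.9 CPM), Otof (10.5 CPM), Lmo7 (58.9 CPM) and Ankfn1 (1.02 CPM).

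Stress programs held few differences between the sexes. None of 20 genes of the unfolded protein response and none of 15 ATF4 and amino acid stress genes had an unadjusted p under 0.05, and the medians were -0.03 and -0.12. Hspa5, the endoplasmic reticulum chaperone BiP, was at 227, 208, 252 and 205 CPM in FC and at 170.4, 264, 287 and 193 CPM in MC, a difference of -0.03 (SE 0.14). Atf4 itself was at -0.12 (SE 0.12), and Ddit3, which encodes CHOP, at 0.11 (SE 0.09). Of 18 heat shock genes 1 was lower in FC at an unadjusted p under 0.05, beside 2.86% of all genes. This small chaperone gene, Hspb1, was at 3.26 to 5.39 CPM in FC and at 5.28 to 11.5 CPM in MC (log2 fold change -0.71, SE 0.27). The inducible Hspa1a was at -0.17 (SE 0.16). Among 16 genes of oxidative stress and metallothioneins, Cat, which encodes catalase, was higher in FC with groups apart but by only 0.21 (SE 0.09, unadjusted p = 0.0348). The zinc-binding Mt2 was at 0.34 (SE 0.15), and the list median was 0.01.

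Of 14 autosomal glucocorticoid response genes 4 were lower in FC at an unadjusted p under 0.05, beside 2.86% of all genes, with 0 higher. The list median was -0.21, and 4 members were positive. Zbtb16, a transcription factor that glucocorticoids induce, was at 34.1, 31.2, 31.4 and 51.0 CPM in FC and at 42.2, 53.5, 41.4 and 55.6 CPM in MC. Within each batch every female was below every male, at a log2 fold change of -0.41 (SE 0.11, unadjusted p = 0.00382, edgeR adjusted p = 0.674). Klf9 was at 139, 161, 157 and 149.7 CPM in FC and at 168, 196, 172 and 186 CPM in MC, with no overlap (log2 fold change -0.25, SE 0.08). Per1, a clock gene that glucocorticoids also induce, was at -0.54 (SE 0.21), and Hsd11b1, the enzyme that regenerates active glucocorticoid, at -0.47 (SE 0.18). Fkbp5, the most used readout of the receptor, was at 31.6, 27.4, 30.2 and 31.6 CPM in FC and at 26.9, 31.7, 29.0 and 28.8 CPM in MC, a difference of 0.05 (SE 0.09). The count of 4 fell to 2 without FC1, FC3, MC1 or MC2, and to 1 without the batch term or in the fit of all 16 libraries. In the fits that gave 2, 1.64 to 2.31% of all genes were lower. Without the batch term 0.923% of all genes were lower, and in the fit of all 16 libraries 1.54%. The median was -0.02 without MC2 and -0.03 with the mitochondrial share as a term, where 7 of 14 were positive. Of 15 clock genes 1 was lower in FC at an unadjusted p under 0.05, beside 2.86% of all genes. This was the repressor Bhlhe40 at -0.30 (SE 0.11). The count of clock genes was 3 without MC3 (3.09% of all genes lower), 2 without FC3 (2.31%) and 0 without MC1 or MC2. The clock repressors Per2 and Cry2 were at -0.20 and -0.14.

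Genes of amyloid production and clearance gave no member with an unadjusted p under 0.05 among 21 tested, and a median of -0.03. App was at 2171, 2162, 2022 and 1757 CPM in FC and at 1981, 2109, 2023 and 2051 CPM in MC, a difference of -0.01 (SE 0.08). Thy1, whose promoter drives the transgenes, was at 2879, 3612, 3076 and 1837 CPM in FC and at 2595, 2765, 2176 and 2248 CPM in MC. In batch 1 it was higher in every female than in every male, and in batch 2 it was lower, giving 0.19 (SE 0.13). Reads of the human transgenes that aligned to these mouse genes and reads of the endogenous genes cannot be told apart. Psen2, a catalytic subunit of gamma-secretase, and Bace2, a beta-secretase relative, were at -0.03 (SE 0.11) and -0.03 (SE 0.26). The amyloid-degrading proteases Mme (neprilysin), Ece1, Ide, Mmp2 and Mmp9 were at -0.33 (SE 0.25), -0.16 (SE 0.08), -0.17 (SE 0.27), 0.08 (SE 0.23) and -0.70 (SE 0.35). Ide was at 108.2 CPM in MC1 and 96.2 CPM in FC4 beside 43.8 to 79.0 CPM elsewhere, and its difference turned to 0.25 without MC1. Of the lipases and adhesion genes followed in the study, Pla2g3, Pla1a and Itgb3 were at 0.09 (SE 0.26), -0.58 (SE 0.31) and 0.02 (SE 0.19).

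Of the 13 autosomal sex steroid receptors and enzymes 10 could be tested. Of these, 1 was higher in FC at an unadjusted p under 0.05, beside 3.31% of all genes. Esr1, the estrogen receptor alpha, was at 6.83, 1.87, 5.98 and 3.30 CPM in FC and at 1.19, 1.39, 2.59 and 2.30 CPM in MC. FC2 lay within the male range, and the log2 fold change was 1.26 (SE 0.41, unadjusted p = 0.0112, edgeR adjusted p = 0.741). The progesterone receptor Pgr was at 43.4 to 48.9 CPM in FC and 47.9 to 54.8 CPM in MC (-0.11, SE 0.08), and the steroid hydroxylase Cyp7b1 at 0.32 (SE 0.17).

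Markers of tissue next to the cortex differed between single libraries. The 14 tested choroid plexus genes summed to 145, 347, 46.7 and 18.1 CPM in FC and to 26.6, 170, 175 and 2100 CPM in MC, so MC4 alone was far above the rest. Ttr, the transthyretin made by choroid plexus epithelium, was at 5.45 to 293 CPM in the other 7 libraries and at 1745 CPM in MC4. The list median was -0.75 and turned to 0.43 without MC4 and likewise without FC4, as either leaves batch 1 alone to give the difference. In these fits 0 members had an unadjusted p under 0.05. Without FC2 the median was -1.47 with 5 members lower, beside 5.62% of all genes. Without the batch term it was -1.92 with 3 lower, beside 0.923%, and with the mitochondrial share as a term 0.10. MC4 was also high for interferon-stimulated genes, and whether these values go together was not tested. Leptomeningeal genes summed to 455 to 919 CPM in FC and 577 to 1500 CPM in MC, with MC2 highest, a median of -0.47 and 0 members at an unadjusted p under 0.05, and the median was -0.10 without MC2. Without FC2 or MC1 it was -0.66 and -0.62, each with 4 members lower at an unadjusted p under 0.05, beside 5.62% and 1.79% of all genes. With the mitochondrial share as a term it was 0.015. Without the filter on low counts 6 members were lower, beside 2.88% of all genes. Endothelial and hippocampal lists also had 0 such members, the pericyte list had Abcc9 at -0.41 (SE 0.17), and the thalamic list had Prkcd at 0.91 (SE 0.30), with 47.6 CPM in FC4 beside 7.06 to 14.6 CPM elsewhere. Of 4 autosomal blood genes 2 could be tested, and their sum was between 0.843 and 29.3 CPM over the 8 libraries with both groups spread across this range. None of these marker sums put all females on the same side of all males as the homeostatic microglia list did.

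The gene with the smallest p, Gm28437, is an unprocessed pseudogene on chromosome 1 (24613189 to 24613971) that copies mitochondrial sequence: 100% of its 31-base words also occur in mitochondrial transcripts. Its level was 42.1, 49.2, 51.1 and 17.6 CPM in FC and 29.7, 22.4, 23.1 and 13.1 CPM in MC, with a log2 fold change of 0.81 (SE 0.13, edgeR adjusted p = 0.143, DESeq2 adjusted p = 6.66e-05). Its count cannot be told apart from mitochondrial reads, and the mitochondrial share was 3.89, 3.85, 5.47 and 3.43% in FC and 4.28, 3.27, 3.63 and 2.64% in MC. Gm3608, also a pseudogene on chromosome 1 (105455971 to 105458829), was at 0.585, 0.113, 0.489 and 0.479 CPM in FC and at 7.83, 0.448, 6.32 and 5.85 CPM in MC. MC2 stood with the females, and the log2 fold change was -3.57 (SE 0.73, edgeR adjusted p = 0.339, DESeq2 adjusted p = 0.0498). Without MC2 it was -3.97 at an edgeR adjusted p of 0.00198.

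The rapamycin-fed mice gave a separate reading of the difference between females and males. FR4, FR5 and MR4 belong to batch 2 of the labels and the other rapamycin libraries to batch 1, with batch as a term. Without MR4, batch 2 holds no male library. The FR minus MR difference then rests on FR1 and FR2 against MR1, MR2 and MR3. FR against MR had 0 autosomal genes past the adjusted and fold thresholds with all 8 libraries and 1 (0.00647%) without the library labelled MR4. At an unadjusted p under 0.05 the shares of all autosomal genes were 4.01% and 6.01%. Of the 20 vehicle genes with the smallest p, 16 had the same sign in FR minus MR, beside 53.8% of all genes, and 14 without MR4, beside 53.7%. The 9 microglial and leukocyte genes among them (Cx3cr1, Mpeg1, Fcrls, Ly9, Nckap1l, Cd33, Hpgds, Lcp1 and Inpp5d) were positive in both fits, with Cx3cr1 at 0.12 and 0.34, Mpeg1 at 0.05 and 0.60, Fcrls at 0.09 and 0.43, and Cd33 at 0.31 and 0.39, but none of these 4 had an unadjusted p under 0.05. With all 8 libraries Lypd1 and Otof were positive, at 0.12 and 0.39, Bhlhe22 and Ankfn1 were at -0.06 and -0.79, and Lmo7 was near 0 at -0.0029. Without MR4 all of these were negative, at -0.36 for Lypd1, -0.29 for Otof, -0.47 for Bhlhe22, -1.71 for Ankfn1 and -0.26 for Lmo7. Etnppl was positive at 0.40 (unadjusted p = 0.0498), and at 0.56 without MR4 (unadjusted p = 0.0287). Camk1g was at -0.42 and -0.60 (unadjusted p = 0.0506 and 0.0248).

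By list, the homeostatic microglia median in FR minus MR was 0.13, with 0 of 14 members higher at an unadjusted p under 0.05, beside 2.16% of all genes. Without MR4 it was 0.40 with 2 of 14 higher, beside 2.4%. The plaque-associated list had a median of 0.24 with 0 of 25 members higher and 1 lower, and of 0.83 with 11 higher without MR4. The phagocytic list had a median of 0.12 with 0 of 15 higher, and of 0.53 with 5 of 16 higher without MR4. For interferon-stimulated genes these values were 0.47 with 4 of 24 higher, beside 2.16% of all genes, and 0.89 with 14 higher. Immediate early genes lay lower in FR, with a median of -0.49 and 2 of 17 members lower, beside 1.85%, and of -1.15 with 14 lower without MR4, beside 3.61%. The striatal list had a median of 0.43 with 4 of 10 members higher, and of 0.59 with 3 higher without MR4. For oligodendrocyte and myelin genes the median was 0.221 with 0 of 18 higher, and 0.355 with 4 higher without MR4. On vehicle diet that median was -0.197. A test of whether the sex difference itself differed between the diets called 0 genes at an edgeR adjusted p under 0.05, with 347 (2.17%) at an unadjusted p under 0.05 and a smallest adjusted p of 0.467. Without MR4 it also called 0, with 508 (3.12%) and 0.997.

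**Figure D5:**
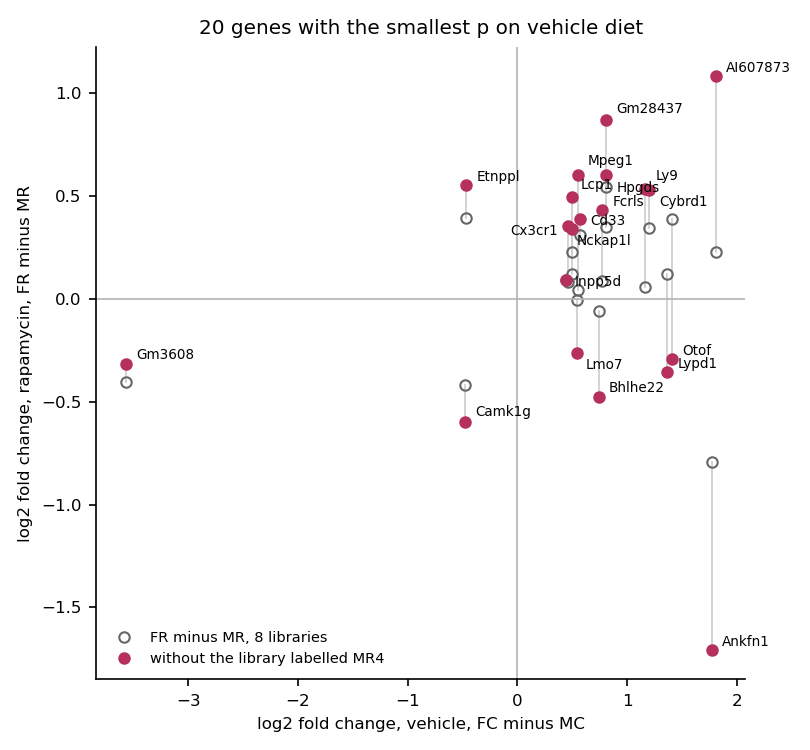
Log2 fold change of FR minus MR (y axis) against FC minus MC (x axis) for the 20 autosomal genes with the smallest p on vehicle diet. Open circles use all 8 rapamycin libraries, filled circles leave out the library labelled MR4, and grey lines join both values of a gene. Without MR4, batch 2 holds no male library. Microglial genes such as Fcrls (0.77 and 0.43) lie at upper right, while Ankfn1 (1.77 and -1.71) and Etnppl (-0.46 and 0.56) lie on opposite sides.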

How the data were processed

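Poly(A) RNA from cortex was sequenced as 150 bp paired-end reads. Per the paper's methods and the submitters' processing notes, the authors checked reads with FastQC 0.11.9, trimmed them with Trimmomatic 0.39 (first 10 bases removed; the notes also name Trim Galore), aligned them to mouse GRCm38 (mm10) with HISAT2 2.2.1 and counted read pairs per gene, without strand, with featureCounts 2.0.3. The deposited values are these raw counts, with no normalization or filter. Without strand, overlapping and antisense genes share reads, and near-identical copies can lose reads or gain them. Depth was 16393501 to 20593089 counted read pairs in the 8 vehicle libraries, and errors come from the spread between libraries.

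Counts were normalized by TMM and tested with edgeR 4.0.16 in R 4.3.3 (quasi-likelihood test, batch and group as terms, filterByExpr with a minimum count of 10). Adjusted p values are Benjamini-Hochberg over all 15625 genes tested, autosomes being read afterwards. CPM uses TMM factors, and errors of fold changes are standard errors. The rapamycin libraries were fitted alone in the same way, and the interaction over all 16. Of 31 gene lists (489 genes), 14 members are sex-linked and were left out. Members and lists were chosen with earlier results of these data known. Named genes are the 20 with the smallest p at a mean of at least 1 CPM, up to 4 members of each list by p (for lists of other cells and regions those at an unadjusted p under 0.05), and the genes the study names. The values of 4 genes of this rule are not reported here. Further list members with a value in the text (such as P2ry12, Tmem119, Spp1, Osmr, Wfs1 and Ttr) were chosen after their values were seen. Alternatives were DESeq2 1.42.0, other size factors, filters and terms, batch 1 alone and leaving out each library. The test was tried on simulated counts. Promoters are RefSeq's, and figures used Python 3.11.15, NumPy 2.4.6 and matplotlib 3.10.9.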

Additional observations from a re-analysis of the deposited data

Results flagged for a closer look

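In 24 of 268 groups of 4 libraries (134 named genes in FC and in MC) a single library stood apart, called by Dixon's 95% critical value for 4 samples from its gap to the nearest library divided by the whole range. Chance alone gives about 1 such group in 20. The library apart was MC4 in 10 groups, FC2 and FC4 in 4 each, MC1, MC2 and MC3 in 2 each, and FC1 or FC3 in 0. Each share below is the gap divided by the range.

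MC4 was apart from the other MC libraries for Ankfn1 at 2.75 CPM above 0.771 to 0.862 CPM (share 0.954), C4b at 73.2 CPM above 58.3 to 60.8 CPM (share 0.835), Nlrc5 at 3.65 CPM above 0.995 to 1.19 CPM (share 0.928), Ifi44 at 3.04 CPM above 0.796 to 1.13 CPM (share 0.852) and Grin2b at 793 CPM above 339 to 401 CPM (share 0.863).
The same library was apart for Per2 at 62.2 CPM above 29 to 33.8 CPM (share 0.856), Pgr at 54.8 CPM above 47.9 to 48.8 CPM (share 0.878), Six3 at 2.42 CPM above 0 to 0.402 CPM (share 0.834), Atf4 at 99.7 CPM below 140 to 146 CPM (share 0.875) and Tlr2 at 2.75 CPM below 4.93 to 5.22 CPM (share 0.88).
FC4 was apart from the other FC libraries for Adarb2 at 23.8 CPM above 14 to 15.2 CPM (share 0.885), Zbtb16 at 51 CPM above 31.2 to 34.1 CPM (share 0.851), Prkcd at 47.6 CPM above 8.26 to 14.6 CPM (share 0.839) and Pla2g3 at 7.01 CPM above 1.46 to 2.26 CPM (share 0.856).
Among FC libraries FC2 was apart for Lmo7 at 58.9 CPM below 80.6 to 82.5 CPM (share 0.921), Psmb9 at 4.81 CPM above 2.88 to 3.07 CPM (share 0.902), Cnp at 422 CPM above 237 to 265 CPM (share 0.849) and Hspa1a at 12.7 CPM above 8.69 to 9.17 CPM (share 0.88).
MC1 stood apart within MC for Hlf at 373 CPM above 271 to 286 CPM (share 0.855) and Slc17a7 at 1480 CPM below 1640 to 1650 CPM (share 0.904).
MC2 stood apart for Hspa1a at 13.3 CPM above 9.94 to 10.5 CPM (share 0.849) and Fos at 77.1 CPM above 29.6 to 34.1 CPM (share 0.904).
For MC3 this held for Gabra2 at 52.3 CPM above 35.5 to 37.8 CPM (share 0.861) and Mme at 10.5 CPM above 4.89 to 5.47 CPM (share 0.896).

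The batch 2 libraries hold 14 of the 24. Batch was a term of the test. No gene passed the test of whether the difference between the sexes differed between the diets.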

How the results depend on the processing

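The count of autosomal genes past the adjusted p and fold thresholds was 0 with edgeR and stayed 0 with other size factors, without the batch term, in batch 1 alone, with all 16 libraries, and with exon length slope or mitochondrial share as an added term. It was 41 without the filter on low counts, 14 with DESeq2 and 0 to 15 with each library left out, the highest without FC2, 1 without MC2 and 0 otherwise. Genes higher in FC at an unadjusted p under 0.05 numbered 499, and 820 without the filter, 285 without batch, 300 with all 16 libraries, 329 with the mitochondrial share as a term and 357 to 773 with a library left out. Genes lower in FC numbered 431, and in the same order 781, 139, 246, 228 and 252 to 863. Without the filter 27096 autosomal genes were tested. Of the 41 called there, 40 were also tested in the main fit and 1 lay below its filter. The cause was not tested for any of these settings. The value of the exon length slope, FC minus MC, ranged from -0.022 to 0.0378 with a library left out.

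With the replicate number as a block 2 genes were called, Gm3608 and Fcrls. The deviations of same-numbered FC and MC libraries had correlations of -0.044, 0.242, 0.268 and 0.623, so the numbers were not taken as pairs, and not every library correlated best with its own number.

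Named genes with differences near 0 changed sign under some settings, none past the threshold. With the mitochondrial share as a term the log2 fold changes were Egr1 0.083, Slc3a2 0.006, App 0.037, Hspa5 0.002, Arc 0.568, Pla2g3 -0.047, Itgb3 -0.044 and Bace2 0.115, in batch 1 alone Apoe -0.063, App 0.053, Pla2g3 -0.14, Tlr2 -0.016, Bace2 0.21 and Mmp2 -0.018, and with the exon length slope Bace2 0.003. With each library left out, the values that crossed 0 ranged as Apoe -0.065 to 0.191, App -0.039 to 0.055, Slc17a7 -0.009 to 0.126, Hspa5 -0.155 to 0.078, Arc -0.618 to 0.208, Fos -0.113 to 0.587, Pla2g3 -0.14 to 0.239, H2-Q7 -0.16 to 0.462, Itgb3 -0.093 to 0.244, Tlr2 -0.019 to 0.287, Psen2 -0.07 to 0.036, Bace2 -0.236 to 0.212, Mmp2 -0.048 to 0.194, Ide -0.327 to 0.246. In FR minus MR, Lypd1 and Otof turned to -0.355 and -0.293 without MR4. Every other recomputed value of the 134 named genes kept its sign, 2191 on the same side of the threshold and 39 now past it. List counts stayed within 1.5 times in 386 recomputations and moved further in 141, and list medians moved by less than the spread in 510 and by more in 17.

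At this depth genes under about 1 CPM have wide errors, and 4 libraries in each group limit all the tests.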
